A study of Schmidtea mediterranea with 60 samples.

Results

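A set of 200 transcript features of the planarian Schmidtea mediterranea was lower than the control with opa1 RNAi at the time labelled homo and higher than the control with opa1 RNAi at 1dpa, 1 day post amputation, in whole-body RNA. The features were chosen from these measurements: the log2(CPM + 1) of the group means, where CPM is a feature's estimated count scaled to a common library sum (CPM), had to be at least 0.3 lower at homo and at least 0.3 higher at 1dpa. In control tails, log2 of the mean value + 10 at 6hpa (hours post amputation), 1dpa and 2dpa had to stay within 1 of 0dpa. Of 36034 features in the whole-body table, 1494 met these thresholds, and the 200 with the largest smaller absolute difference were taken as members. The opposite pattern, higher at homo and lower at 1dpa at the same thresholds, was met by 367 features. On this scale the median over all features tested was itself -0.16 at homo and 0.09 at 1dpa, in the direction of the rule. The counts of 1494 and 367 are therefore not weighed against each other. Feature SMED30016012, the last inside the limit, differed by -0.63 at homo and 0.48 at 1dpa, and SMED30018845 before it by -0.48 and 0.54. The next outside were SMED30002115, with -0.89 and 0.48, and SMED30023277, with -0.83 and 0.48. No file ties a feature ID to a gene name, so 0 IDs could be matched to a gene and no function is given for any of them.

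Opa1 codes for a dynamin-family GTPase that fuses the inner mitochondrial membrane and shapes its folds, and drp1 codes for the GTPase that divides mitochondria. The balance of fusion and fission sets the length of mitochondria and influences how they make energy. Sod2 codes for the manganese superoxide dismutase, which removes superoxide inside mitochondria. Planarians are flatworms that regrow any lost part from a pool of dividing stem cells called neoblasts, and RNAi with double-stranded RNA is the usual way to lower a transcript in them.

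The samples were 24 whole-body libraries, with egfp, opa1, drp1 or sod2 RNAi at homo or 1dpa, and 36 libraries of tails, with egfp;egfp, opa1;egfp or opa1;drp1 RNAi at 0dpa, 6hpa, 1dpa or 2dpa. Each group held 3 libraries and all animals had RNAi, with egfp, a jellyfish gene that planarians lack, as the control. The sources used here give no strain, age or number of animals per library and no meaning for the label homo. Nor do they tell if a replicate was its own animal or a pool. The spread that p-values rest on here may therefore be technical. The depth of a whole-body library was 10611093 to 14328908 estimated counts, and tail libraries summed to values of 8345030 to 14472000 after a scaling by the authors. No feature could be tied to opa1, drp1 or sod2, so the effect of the RNAi on its own target was not checked. Markers of cell types could not be found for the same reason, and in bulk RNA fewer cells of a type and less RNA per cell cannot be told apart.

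By the choice itself, all 200 members were below the control at homo and above it at 1dpa with opa1 RNAi. The median difference was -0.69 at homo, with a range of -1.77 to -0.48, and 0.56 at 1dpa, with a range of 0.48 to 1.71. Over all 22889 features tested, the same medians were -0.16 and 0.09, so both medians of the members include a shift of all features. With TMM scaling, which sets the bulk of features level between libraries, the medians over all features were -0.01 and 0.02, and those of the members were -0.59 and 0.48. All 200 members still met the thresholds on that scale, while the number of features that met them in all was 647. With log2(CPM + 5) in place of log2(CPM + 1), only 79 of the 200 members met them. In edgeR's quasi-likelihood test over all features, 127 of the 199 members tested were below the adjusted p limit of 0.05 at homo, beside 15.6% of all features called lower. At 1dpa 51 of 199 were, beside 4.57% of all features called higher, and 40 were in both. These counts describe the choice and test nothing.

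The libraries that entered the choice were not alike. The median deviation of the members from their own mean over all whole-body libraries was 0.0036, 0.15 and 0.37 in the 3 egfp libraries at homo. The third was the highest, and 135 of 200 members had their highest egfp value at homo in it. The median deviation over all features tested rose in the same order, at -0.06, -0.02 and 0.06. The count of 135 was not made over all features, so it is not read as a trait of the members. With opa1 RNAi at homo the 3 libraries were at -0.61, -0.58 and -0.44, the lowest of the 24, and with drp1 RNAi they were at -0.44, -0.30 and -0.34. At 1dpa the opa1 libraries stood at 0.58, 0.64 and 0.50 and the egfp libraries at -0.03, 0.03 and -0.07. Every opa1 library lay below every egfp library at homo in 156 members, and above it at 1dpa in 161, with both in 130. Over all features tested these shares were 30.5%, 24% and 8.14%, and since these libraries made the choice, nothing is read from the counts. Without the third egfp library at homo, 1242 features met the thresholds and 152 of the 200 were chosen again. Leaving out any other single egfp or opa1 library gave up to 1960 features and 130 to 172 of the 200.

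**Figure D1:**
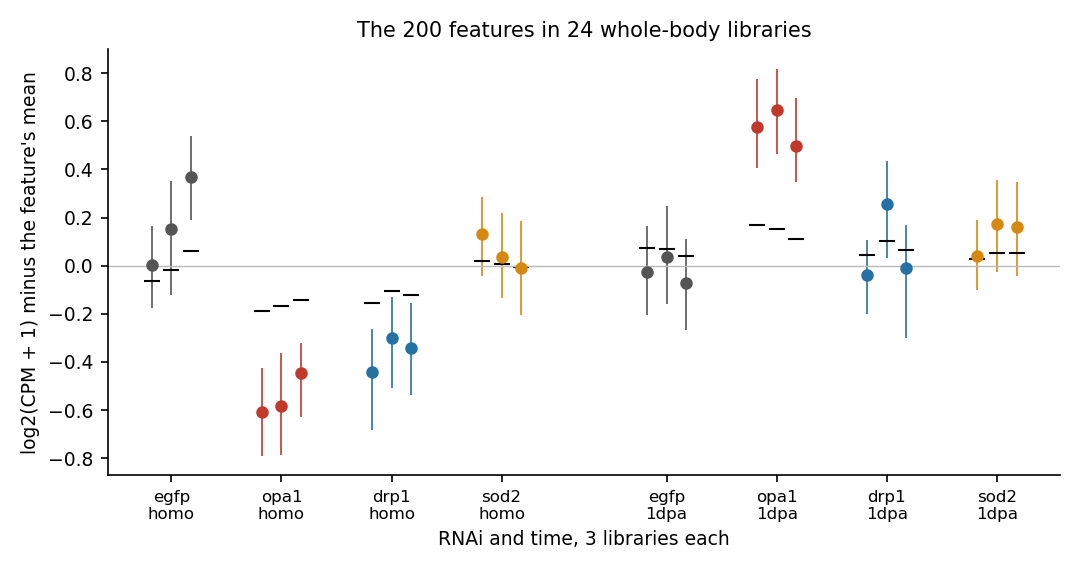
Each point is the median over the 200 members of log2(CPM + 1) minus the feature's mean over 24 whole-body libraries, with the 25th to 75th percentile of the members as a line and the same median over all features tested as a black dash. The opa1 libraries lie at -0.61 to -0.44 at homo and at 0.50 to 0.64 at 1dpa, and the drp1 libraries at homo at -0.44 to -0.30.

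The difference was then read in libraries that the choice had not used. The rule was applied again without the libraries of one replicate number, and the 200 features it gave were measured in the egfp and opa1 libraries left out. At homo the median difference was -0.44, -0.58 and -0.71 without replicate 1, 2 and 3, and 175, 178 and 189 of 200 features were below 0. Over all features tested these medians were -0.11, -0.14 and -0.19, and 61.9%, 63.4% and 65.3% were below 0. At 1dpa the median of the chosen features was 0.28, 0.30 and 0.28, and 147, 168 and 149 were above 0. Over all features tested it was 0.11, 0.09 and 0.08, and 61.9%, 62.3% and 60.2% were above 0. Part of the difference at each time was thus a shift of all features. The difference in the libraries left out at 1dpa was thus well below the 0.61 to 0.63 in the libraries that made the choice. Both directions together were found in 127, 148 and 143 of the 200, beside 40.2%, 41.4% and 41.0% of all features tested. With TMM scaling both were found in 114, 126 and 117, beside 27.4%, 28.1% and 27.2%. The lists chosen again shared 94, 102 and 99 features with the 200 members.

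**Figure D2:**
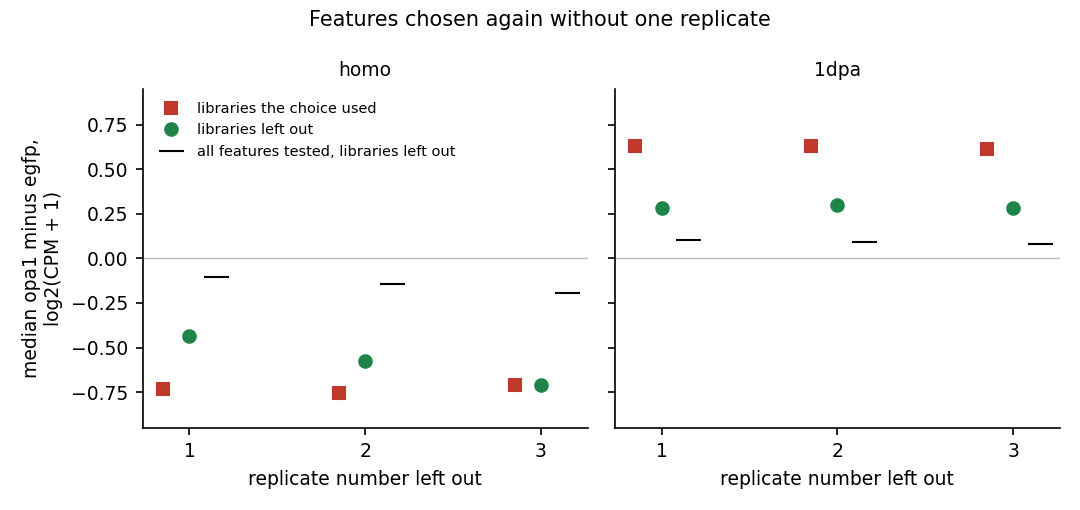
Median difference opa1 minus egfp in log2(CPM + 1), for 200 features chosen without one replicate number, in the libraries used for the choice (squares), in the libraries left out (circles) and for all features tested (dashes). At 1dpa the circles lie at 0.28 to 0.30 and the squares at 0.61 to 0.63.

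Members were scarcer than most features. Their median level over the whole-body libraries was 2.28 CPM, against 7.14 CPM for all features tested, and 27 of 200 (13.5%) were above 10 CPM, against 44.7%. The median member had a mean of 29.5 estimated counts per library, against 91.8. A count more than 0.001 from a whole number, which comes from reads shared between features, occurred in 56 of 200 members (28.0%) and in 17.3% of all features, so levels of these members are uncertain where near copies share reads. Their median relative length, read from the ratio of counts to TPM, was 1.11, against 1.28. One member, SMED30035922, was below the filter on low counts and was not tested in whole bodies.

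Many members also had lower scaled values in tails than in whole bodies. On log2 of the library-scaled value + 1, control tails were at a median of -0.63 relative to egfp whole bodies, with quartiles of -0.91 and -0.35, against -0.22 for all features tested. The 2 tables were scaled separately, and the authors' scaling of tail values differed between features. Division by library sums does not remove such a factor. The gaps between the tables are thus a description of deposited values, and the part of the scaling in them was not tested. A level over 4-fold lower in tails was found for 10 members (5.0%) and for 1.45% of all features. The largest such gap was in SMED30018052, at 138 CPM in egfp whole bodies and 1.08 in control tails, both per library sum on the CPM scale. SMED30009805 and SMED30023733 were listed at 0 in all 36 tail libraries. In 63 members (31.5%) the control tail mean was under 10 at every time, against 18.3% of all features. With 10 added to each mean such members could not change by more than 1 on the log2 scale. They thus passed the limit on change with time whatever their course.

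SMED30018052 shows the pattern at a high count. With egfp RNAi it was at 133, 146 and 165 CPM at homo and 130.1, 127 and 127 at 1dpa. With opa1 RNAi it was at 87.1, 98.1 and 99.6 CPM at homo and 194, 215 and 204 at 1dpa. With drp1 RNAi it was at 113, 112 and 108 CPM at homo and 109.8, 109 and 53.0 at 1dpa, and with sod2 RNAi at 134, 129 and 125 and then 135, 133 and 138. The opa1 libraries were the lowest at homo and the highest at 1dpa with no overlap with any other group, and one drp1 library at 1dpa was far below the other two.

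The most abundant members by TPM, a length-scaled share, were SMED30021196 at 527, SMED30004569 at 186 and SMED30000459 at 108. SMED30000459 was at 476, 399 and 540.1 CPM in egfp at homo, 302, 326 and 299.6 in opa1, 249.9, 281 and 256 in drp1, and 401, 405 and 488 in sod2. At 1dpa it was at 238, 262 and 259 in egfp, 359.97, 364 and 342 in opa1, 222, 254 and 217 in drp1, and 255, 243 and 289 in sod2. Egfp and sod2 libraries were thus the high ones at homo, and the 3 opa1 libraries the high ones at 1dpa. SMED30021196 had another course, with 77.4, 74.9 and 122.8 CPM in egfp at homo and 223, 198 and 201 at 1dpa. With opa1 RNAi it was at 32.7, 52.2 and 72.2 CPM at homo and 309.6, 299.8 and 268 at 1dpa. In whole bodies it was higher at 1dpa than at homo in every library of both groups. Its course in tails went the other way and is given below.

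Among the members with the largest smaller difference, SMED30009805 was at 3.14, 3.87 and 9.19 CPM in egfp at homo and at 1.68, 1.78 and 2.42 in opa1. At 1dpa it was at 4.89, 4.25 and 4.44 CPM in egfp and at 10.7, 10.4 and 10.4 in opa1. Its egfp mean at homo rested on the third library, which was over the other two. SMED30004189 was at 5.67, 6.62 and 8.24 CPM in egfp and 3.66, 2.30 and 2.35 in opa1 at homo, and at 3.52, 3.87 and 3.47 in egfp and 6.91, 8.17 and 6.97 in opa1 at 1dpa, with no overlap at either time. The member ranked first, SMED30002990, was at 0 in most libraries. It was at 0, 0 and 3.71 CPM in egfp and at 0 in all opa1 libraries at homo, and at 0 in all egfp libraries and 4.88, 1.91 and 0 in opa1 at 1dpa. It was highest with sod2 RNAi at homo, at 9.67, 11.2 and 19.6 CPM, and at 0 in all sod2 libraries at 1dpa. Against a floor of 3 counts per library (0.253 CPM), the sod2 level was at least 53.4-fold higher at homo than at 1dpa, a figure that covers counting error only. Its rank thus rested on 1 egfp library at homo and 2 opa1 libraries at 1dpa.

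**Figure D3:**
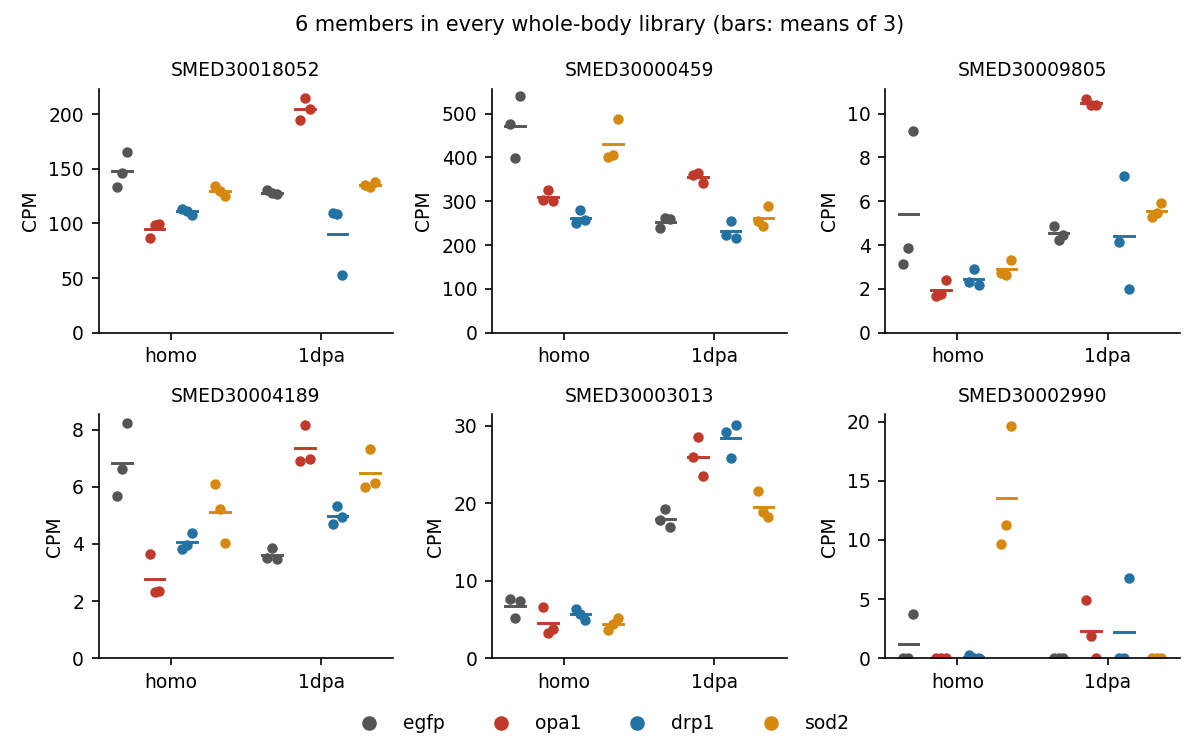
CPM of 6 members in each whole-body library (points) with the group mean of 3 (bars), by RNAi and time, on a linear axis from 0. The opa1 libraries of SMED30018052 lie between 87.1 and 99.6 CPM at homo and between 194 and 215 at 1dpa, while SMED30002990 is at 0 in most libraries and reaches 19.6 CPM with sod2 RNAi at homo.

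Beside opa1, the drp1 group was low at homo and near the control at 1dpa. The drp1 difference from egfp had a median of -0.53 at homo, where 199 of 200 members were below 0, and of 0.09 at 1dpa, where 132 were above. The sod2 difference from egfp had a median of -0.09 at homo, where 136 were below 0, and of 0.14 at 1dpa, where 155 were above. All features tested had medians of -0.13 and 0.01 with drp1 and of 0.01 and -0.01 with sod2. At homo, the drp1 mean was nearer to the opa1 mean than to the egfp mean in 164 of 200 members, and the sod2 mean in 27. At 1dpa drp1 was nearer to opa1 in 31 and sod2 in 37. These differences share the egfp libraries that made the choice, so they are set side by side without a test. The counts of nearer means were not made over all features, so they are not read as a trait of the members.

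From homo to 1dpa the median change over members was -0.24 with egfp, 1.12 with opa1, 0.38 with drp1 and 0.07 with sod2, against 0.06, 0.32, 0.18 and 0.04 over all features tested. The egfp and opa1 courses follow from the choice in part. Every opa1 library at 1dpa was above every opa1 library at homo in 196 members, beside 49.0% of all features, a count that the choice itself favoured. The opa1 mean at 1dpa was the highest of the 8 group means in 171 members, and the opa1 mean at homo the lowest in 150, with drp1 at homo the lowest in another 35. These ranks were not counted over all features. The median deviation over all features tested was also low in the opa1 libraries at homo, at -0.19, -0.17 and -0.14. At 1dpa it was high in them, at 0.17, 0.15 and 0.11, so nothing is read from the ranks.

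Drp1 and sod2 libraries had no part in the choice, so they were compared with each other in edgeR's quasi-likelihood test, with Benjamini-Hochberg adjustment over all 22889 features. At homo 44 of 199 members (22.1%) were lower with drp1 than with sod2 RNAi and 0 were higher, beside 9.3% and 12.2% of all features. At an unadjusted p under 0.05 there were 70 of 199 members in either direction, beside 7606 of all 22889 features, a similar share. DESeq2 called 40 lower and 0 higher. The median log2 fold change was -0.50, with quartiles of -0.76 and -0.27, against -0.03 over all features, and 175 of 199 members were below 0. Every drp1 library was below every sod2 library in 103 members (51.8%), beside 32.7% of all features, on CPM scaled by library sums. The count of calls was 25 without drp1 replicate 1 or without sod2 replicate 1 at homo, and 28 without drp1 replicate 2.

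The calls lay among the more abundant members. Of the 100 members at or above the median level of 2.28 CPM 37 were called, and of the 99 below it 7 were, while the medians of log2 fold change were -0.49 and -0.53. SMED30000459 was lower with drp1, at -0.55 ± 0.086 on the log2 scale (SE, n = 3 and 3, edgeR adjusted p = 1.47e-05), and SMED30004569, at 4.62, 5.28 and 4.16 CPM with drp1 and 9.21, 12.03 and 8.95 with sod2, by -0.94 ± 0.20 (edgeR adjusted p = 0.000917). Apart from SMED30002990, the largest named fall was in SMED30002950. It was at 0.239, 0.565 and 0.876 CPM with drp1 and 2.26, 1.64 and 2.58 with sod2, which gave -1.75 ± 0.43 on the log2 scale (SE, edgeR adjusted p = 0.00311). The most abundant member by TPM, SMED30021196, was at 53.6, 64.2 and 65.0 CPM against 105.6, 105 and 77.2, with -0.49 ± 0.17 (edgeR adjusted p = 0.0359), and its call was lost in 5 of 11 other fits, where the adjusted p reached 0.155. SMED30018052 did not pass the test at homo, with -0.06 ± 0.13 (edgeR adjusted p = 0.816).

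At 1dpa fewer members passed the test. Of 199 members 3 were lower and 1 was higher with drp1 RNAi in edgeR, beside 2.49% and 2.08% of all features. An unadjusted p under 0.05 was found for 23 members, beside 3909 of all 22889 features, a smaller share among members. The median log2 fold change was -0.12, against 0.01 over all features, and it was -0.25 without drp1 replicate 2, -0.08 without drp1 replicate 1, -0.05 without drp1 replicate 3 and -0.06 without sod2 replicate 3. Without drp1 replicate 2 at 1dpa 6 were lower and 2 higher, and without drp1 replicate 3 or sod2 replicate 2 there was 1 call, lower, and without sod2 replicate 3 there were 2. Calls over all features in these fits were 1111, 522, 627 and 635, against 1047 with every library. SMED30018052 was lower, at -0.61 ± 0.13 on the log2 scale (SE, edgeR adjusted p = 0.00484), which rested in part on the drp1 library at 53.0 CPM. Without that library the value was -0.35 and the edgeR adjusted p 0.00619, and the call was lost when only these groups were fitted. SMED30003013 was the member that was higher, at 29.2, 25.8 and 30.1 CPM with drp1 and 21.6, 18.9 and 18.2 with sod2, or 0.51 ± 0.15 on the log2 scale (edgeR adjusted p = 0.0493), a call that was lost in 6 of 11 other fits.

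From homo to 1dpa with drp1 RNAi, 47 of 199 members were called in edgeR, 41 that rose and 6 that fell, beside 16.1% and 16.2% of all features. The median log2 fold change was 0.43, against 0.03, and 157 of 199 were above 0. Without drp1 replicate 2 at 1dpa the median was 0.25 and 72 of 200 were below 0, against 42 of 199 with it. SMED30003013 rose from 6.29, 5.75 and 4.89 CPM to 29.2, 25.8 and 30.1, up by 2.10 ± 0.18 on the log2 scale (SE, edgeR adjusted p = 3.14e-10), and SMED30002950 by 1.84 ± 0.43 (edgeR adjusted p = 0.00112). The members that fell included SMED30007223, at -0.73 ± 0.23 on the log2 scale (edgeR adjusted p = 0.0121), and SMED30030098, at -0.56 ± 0.16 (edgeR adjusted p = 0.00861). Both of these calls were lost without drp1 replicate 3 at 1dpa, with adjusted p of 0.0599 and 0.0752.

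With sod2 RNAi the counts in either direction were near each other. Of 199 members 12 rose and 9 fell from homo to 1dpa in edgeR, beside 8.78% and 9.45% of all features, and the median log2 fold change was 0.06, against 0.02. The median was 0.11 without sod2 replicate 1 at either time, and the count was 13 without sod2 replicate 3 at 1dpa. That last fit called 2852 of all features, against 4174 with every library. SMED30003013 rose here too, from 3.62, 4.37 and 5.23 CPM to 21.6, 18.9 and 18.2, by 2.11 ± 0.18 on the log2 scale (SE, edgeR adjusted p = 1.05e-09). SMED30010112 was lower at 1dpa, at 2.12, 2.70 and 2.27 CPM after 3.53, 3.30 and 6.53, by -0.95 ± 0.29 (edgeR adjusted p = 0.0189), a call lost in 3 of 11 other fits.

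The test of the difference itself asked whether drp1 and sod2 diverged in their change from homo to 1dpa. In 11 of 199 members the change was more positive with drp1 and in 0 more negative in edgeR's interaction test, beside 4.6% and 6.91% of all features. At an unadjusted p under 0.05 there were 37 members, beside 5594 of all 22889 features, a smaller share among members. The median of the interaction was 0.37 on the log2 scale, against 0.04. The share called, 5.53%, was near the background share in that direction. The count was 6 without drp1 replicate 1 at homo, beside 1786 of all features, against 2633 with every library. The median was 0.23 without drp1 replicate 2 at 1dpa.

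**Figure D4:**
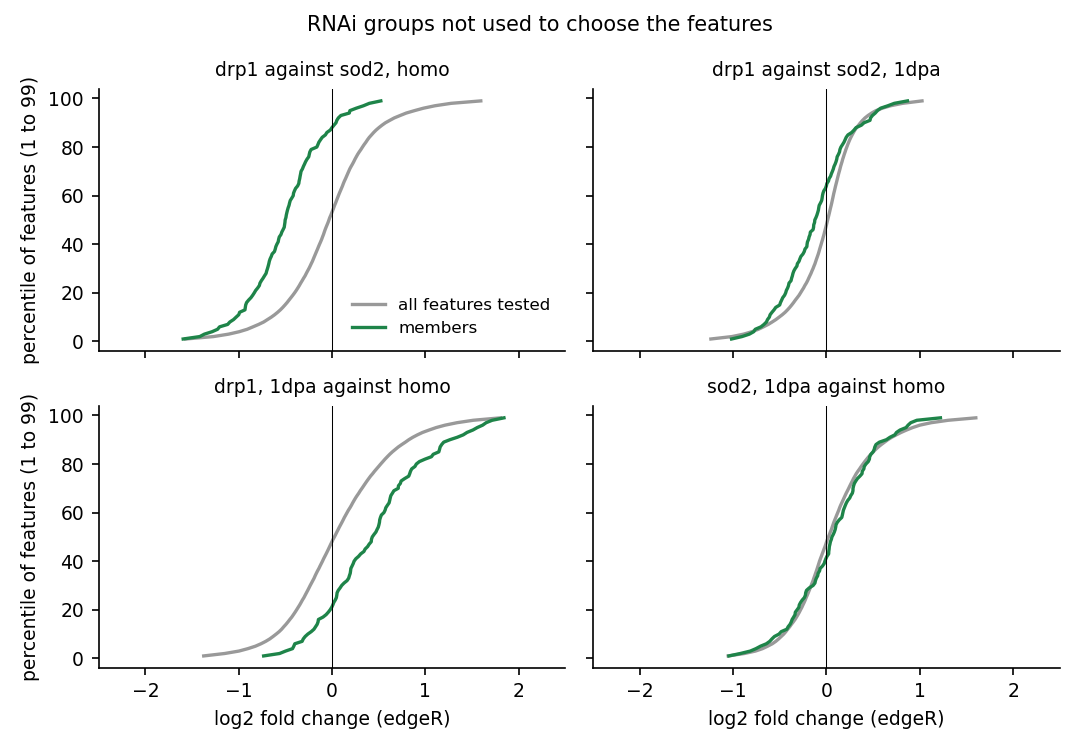
The 1st to 99th percentile of the edgeR log2 fold changes of the members (green) and of all features tested (grey) in 4 comparisons of drp1 and sod2 libraries. The member curve lies left of the grey one for drp1 against sod2 at homo, with a median of -0.50, and right of it for drp1 from homo to 1dpa, with a median of 0.43.

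In tails, 157 of the 200 members reached the limit of a value of 10 in 3 libraries and were tested with limma on log2(value + 1), a scale that understates the change of low features. These 157 are not all members, and the control tails had entered the choice through the limit on their change with time. Few members passed the test between opa1;egfp and egfp;egfp tails. At 0dpa, 1dpa and 2dpa limma called 0 of 157, beside 0.247%, 0.513% and 1.02% of all 20681 features. The counts at an unadjusted p under 0.05 were 17, 14 and 13, beside 1803, 2004 and 2260 of all features. At 6hpa it called 2 lower and 0 higher, beside 0.919% and 0.614% of all features. An unadjusted p under 0.05 was found there for 23 members, beside 3168 of all features, a similar share. The count of calls at 6hpa was 0 without egfp;egfp replicate 1, 2 higher and 3 lower without egfp;egfp replicate 2, and 1 without opa1;egfp replicate 2. At 1dpa it was 5, all lower, without opa1;egfp replicate 2, and at 2dpa 1 without egfp;egfp replicate 3. Of all features the 3 fits at 6hpa called 127, 726 and 275, against 317 with every library. The fit at 1dpa called 390, with 330 lower, against 106, and that at 2dpa 161 against 210. The medians of log2 fold change were -0.23, -0.24, -0.11 and -0.22 at 0dpa, 6hpa, 1dpa and 2dpa, against -0.02, -0.03, -0.02 and -0.04 over all features. With 1 library left out, the median at 6hpa was -0.01 without egfp;egfp replicate 2, where that over all features was -0.01 too, -0.38 without egfp;egfp replicate 1 and -0.09 without opa1;egfp replicate 1. At 0dpa it was -0.13 without egfp;egfp replicate 2 and -0.37 without egfp;egfp replicate 3. At 1dpa it was -0.21 without opa1;egfp replicate 2, -0.17 without egfp;egfp replicate 1, -0.06 without opa1;egfp replicate 1 and -0.05 without opa1;egfp replicate 3. With a pseudocount of 10 it was -0.13 at 0dpa and at 6hpa and -0.14 at 2dpa. On the TPM table of tails the median was -0.07 at 0dpa, 0.05 at 6hpa and 0.03 at 1dpa, where that over all features was 0.07, 0.26 and 0.10. The set differed, since 129 members and 19548 features were tested on that table. There 2 members were called higher and 0 lower at 6hpa, none of them called in the scaled values, and of all features 3686 were higher and 63 lower.

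In tails a test of the change with time found almost no feature of any kind. The change from 0dpa to 1dpa of the opa1;egfp difference from egfp;egfp was tested as an interaction in limma. One part of it, the change of egfp;egfp tails, had been limited by the choice in members and not in all features. Members and all features are therefore set side by side here without a conclusion. Of 157 members 0 were called, beside 0.0145% of all features. At an unadjusted p under 0.05 there were 6 members, beside 1257 of all 20681 features. That test called 3 features in all, so the count of 0 says little about the members. Its median was 0.13 on the log2 scale, against 0.00 over all features. The median was 0.01 without opa1;egfp replicate 2 at 0dpa, without egfp;egfp replicate 2 at 0dpa or without opa1;egfp replicate 2 at 1dpa. It was 0.26 without egfp;egfp replicate 3 at 0dpa, 0.27 without opa1;egfp replicate 3 at 1dpa and 0.07 with a pseudocount of 10. A tail at 0dpa is not the same sample as a whole body at homo, and the whole-body and tail experiments share no library.

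The members that fell at 6hpa with opa1;egfp were SMED30021196 and SMED30003013. SMED30021196 was at 2012, 1898 and 1772 in egfp;egfp tails, 1102, 1071 and 1239.7 in opa1;egfp tails and 1679.6, 1287 and 1727 in opa1;drp1 tails, in the authors' scaled values. The opa1;egfp libraries were all below the control, by a log2 fold change of -0.74 ± 0.18 (SE, limma adjusted p = 0.0240), and the call was lost in 5 of 13 other fits. SMED30003013 was at 288, 167 and 132 in egfp;egfp, 131, 81.5 and 128 in opa1;egfp and 273, 236 and 276 in opa1;drp1 tails. It fell by 0.74 ± 0.20 on the log2 scale with opa1;egfp, which was lost in 7 of 13 other fits (limma adjusted p = 0.0480), and was higher in opa1;drp1 than in opa1;egfp tails by 1.23 ± 0.20 (limma adjusted p = 0.000501), lost when only those groups were fitted.

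The opa1;drp1 tails were higher than opa1;egfp tails at 6hpa in 6 of 157 members and lower in 0 by limma, beside 2.4% and 2.36% of all features, with a median log2 fold change of 0.35 against 0.06, or 0.19 with a pseudocount of 10. The count was 11 without opa1;egfp replicate 2, 10 without opa1;egfp replicate 3 and 3 without opa1;drp1 replicate 2. Those fits called 1610, 828 and 310 of all features, against 984 with every library. On the TPM table of tails the median over the 129 members tested was -0.01, with 1 called higher and 2 lower. There the median over all features was -0.26. SMED30030747 was at 17.0, 16.2 and 20.04 in opa1;drp1 and 6.81, 8.76 and 2.88 in opa1;egfp tails, a log2 fold change of 1.48 ± 0.35 (limma adjusted p = 0.0143). That call was lost in 2 of 12 other fits, where the limma adjusted p reached 0.313. At 0dpa and 1dpa limma called 0 of 157, beside 0.764% and 0.3% of all features. At an unadjusted p under 0.05 there were 15 and 6 members, beside 3352 and 1333 of all 20681 features. Without opa1;egfp replicate 3, 1 was called at 1dpa, beside 58 of all features.

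At 2dpa limma called 1 of 157 lower and 0 higher, beside 0.469% and 0.266% of all features. That member was SMED30000459, at 664, 744 and 696 in opa1;drp1 tails against 1091, 1140.3 and 1123 in opa1;egfp tails and 791, 769.9 and 701 in egfp;egfp tails. The log2 fold change was -0.67 ± 0.16 (SE, limma adjusted p = 0.0330), and the opa1;drp1 libraries were below every opa1;egfp library and overlapped those of egfp;egfp. The call was lost when any 1 library of the opa1;egfp and opa1;drp1 groups was left out, and the adjusted p reached 0.193 over the other fits. Its lower level in opa1;drp1 tails stood beside a median of 0.27 over the members at that time.

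**Figure D5:**
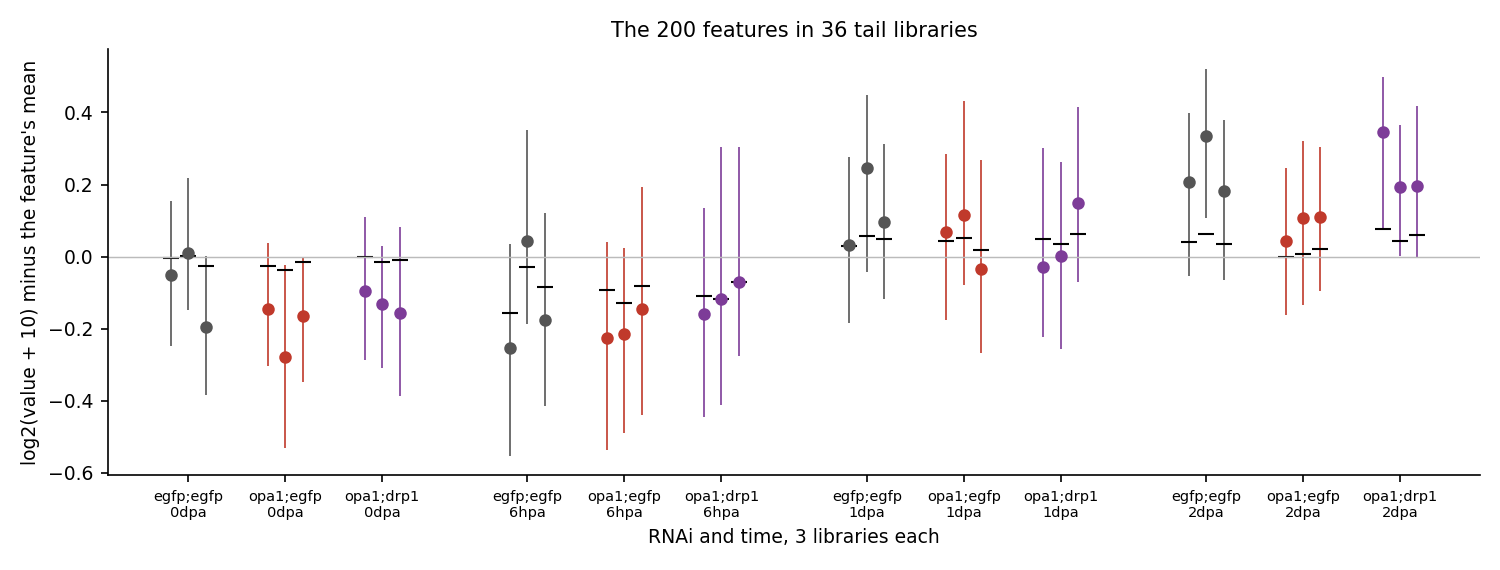
Median over the 200 members of log2(value + 10) minus the feature's mean over 36 tail libraries, with the 25th to 75th percentile of the members as a line and the median over all features tested as a black dash, by RNAi and time. The opa1;egfp libraries lie at -0.28 to -0.15 at 0dpa and at 0.04 to 0.11 at 2dpa, with the egfp;egfp libraries at -0.20 to 0.01 and at 0.18 to 0.33.

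From 0dpa to 1dpa the share of members called was near that of all features in opa1;egfp tails and below it in opa1;drp1 tails. Members had been chosen for a limited change over this interval in control tails, and the features beside them had not. These shares are therefore not read as a trait of the members. In opa1;egfp tails 29 of 157 members rose (18.5%) and 16 fell (10.2%) by limma, beside 14.3% and 13.8% of all features, and the median log2 fold change was 0.59, against 0.06. The count was 22 without opa1;egfp replicate 2 at 0dpa, beside 3806 of all features, against 5809 with every library. In opa1;drp1 tails 2 rose and 5 fell, beside 5.24% and 4.18% of all features, with a median of 0.35. The medians were 0.34 and 0.18 with a pseudocount of 10. On the TPM table of tails 5 of the 129 members tested rose and 1 fell in opa1;drp1 tails, 2 of them among the 7. Of the 19548 features tested there, 2149 rose and 195 fell. The count was 3 without opa1;drp1 replicate 1 at 0dpa and 4 without replicate 2 at 1dpa. Those fits called 1149 and 1062 of all features, against 1949 with every library. In control tails, where the choice had limited the change, the median was 0.43 and 9 of 157 members were past the limit of the test, beside 13.8% of all features.

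SMED30029266 had the largest named rise in opa1;egfp tails, from 2.20, 0.963 and 0.789 to 11.1, 12.9 and 10.9, by 2.49 ± 0.73 on the log2(value + 1) scale (SE, limma adjusted p = 0.00958). In control tails it was at 2.96, 10.7 and 0.905 and then at 11.1, 9.46 and 4.81, so the 1dpa values overlapped. SMED30018845 fell in opa1;egfp tails from 5.97, 13.6 and 5.57 to 1.59, 2.29 and 0, by a log2 fold change of -2.10 ± 0.77 (limma adjusted p = 0.0377), a call lost in 6 of 12 other fits. SMED30032464 rose in opa1;drp1 tails from 6.68, 12.8 and 3.79 to 39.0, 25.9 and 36.9, by 2.11 ± 0.49 on the log2 scale (limma adjusted p = 0.00438), and SMED30007667 fell there from 73.3, 72.2 and 65.6 to 60.6, 21.3 and 18.5, by a log2 fold change of -1.25 ± 0.31 (limma adjusted p = 0.00754). The fall of SMED30007667 was lost without replicate 2 or replicate 3 at 1dpa. SMED30021196, which rose in whole bodies, fell from 0dpa to 1dpa in opa1;egfp tails. Its log2 fold change was -1.55 to -1.02 over 13 other fits, with 0 calls lost. In opa1;drp1 tails the range was -0.88 to -0.49, with 3 of 13 lost. SMED30003013 rose in both, at 1.30 to 1.61 and at 0.96 to 1.23, with 0 of 13 lost in either.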

How the data were processed

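Estimated counts were deposited by the authors for whole bodies, made with kallisto to judge by the name of the table. For tails the authors deposited a signal that had been scaled, by a factor that differed between features. Neither the scaling nor the version, index or build is given in the sources used here. The TPM tables deposited by the authors served for the most abundant members, relative length and 1 alternative. Per the labels' protocols, 400 ng of total RNA made each library with an NEBNext Ultra RNA SMARTER kit.

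Members and tests were chosen with earlier results of these data known. Rounded counts were fitted in edgeR 4.0.16 (TMM, its filter for low counts, 8 group means over 24 libraries). The edgeR test returns no SE. The SE printed with it is the absolute log2 fold change divided by the square root of the test's F value. It rests on the spread fitted over all 24 libraries. The same test was planned for tails, but their values are not counts, so limma 3.58.1 (trended prior) was run on log2(value + 1) for features at 10 or more in 3 libraries (12 group means, 36 libraries). Adjustment was by Benjamini-Hochberg within each of 16 comparisons, and a feature is called under 0.05. Both fits were tested on simulated data, with changed features placed only above a minimum level and with a fixed spread. That test does not cover members below the minimum, which many were in tails. Named features were the 4 members ranked first, 2 on either side of the limit, the 3 highest by TPM, and per comparison up to 2 rises and 2 falls with separate libraries and a mean log2 level of at least 1. SMED30023733 and SMED30035922 were named after their values were seen, and SMED30018052 is described most fully for that reason. Alternatives used R 4.3.3 and DESeq2 1.42.0.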

Additional observations from a re-analysis of the deposited data

Results flagged for a closer look

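The change from homo to 1dpa differed between drp1 and sod2 RNAi in 11 of 199 members, all more positive with drp1, by the interaction test in edgeR. That share, 5.53%, was near the 4.6% of all features called in that direction. Of the 11, SMED30002950 had an interaction of 2.12 on the log2 scale: it went from 0.239, 0.565 and 0.876 CPM to 1.93, 2.75 and 2.51 with drp1 and from 2.26, 1.64 and 2.58 to 1.06, 1.52 and 2.88 with sod2. That call was lost without drp1 replicate 1 at homo, where the adjusted p was 0.0563. SMED30002990 had a fitted interaction of 14.49, which depends on the prior count and is no bound, since it was at 0 in all sod2 libraries at 1dpa and at 0 in all but one drp1 library at each time. DESeq2 did not call it.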

How the results depend on the processing

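Of 106 counts and medians under another setting with all libraries kept, 91 moved by less than 1.5 times or by less than the spread between replicates. For drp1 against sod2 at 1dpa, 8 members were called with no filter and 2 with only the groups compared, instead of 4. For opa1;egfp against egfp;egfp tails, 1 was called at 6hpa with a pseudocount of 10, with no filter or with sums without the most abundant feature, 0 with only the groups compared, and 2 at 2dpa with only the groups compared. For opa1;drp1 against opa1;egfp tails, 3 were called at 6hpa on the TPM table and 0 with only the groups compared, and at 2dpa 0 with no filter or on the TPM table and 3 with only the groups compared. The thresholds were met by 647 features with TMM scaling and by 313 with a pseudocount of 5. With that pseudocount 79 of the 200 members still met them, and 67 were chosen again. The median difference at 1dpa in libraries left out of the choice was 0.185 with TMM scaling, against 0.284. The causes were not tested.

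With 1 library left out, the counts of members called ranged over 25 to 40 for drp1 against sod2 at homo, 1 to 8 at 1dpa, 36 to 48 for drp1 with time, 13 to 19 for sod2 with time and 6 to 16 for their interaction. In tails they ranged over 0 to 0, 0 to 5, 0 to 5 and 0 to 1 for opa1;egfp against egfp;egfp at the 4 times, 0 to 0, 3 to 11, 0 to 1 and 0 to 0 for opa1;drp1 against opa1;egfp, 0 to 0 for the interaction, 22 to 43 for opa1;egfp with time and 3 to 7 for opa1;drp1 with time. The thresholds were met by 1242 to 1960 features; leaving out single egfp or opa1 libraries was chosen after seeing the data. Of 52 calls of named features, 22 held under every alternative and 0 changed sign. Counts over all features moved as well with 1 library left out, so the ranges are not read as a trait of the members.

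Same-numbered libraries did not deviate together: the correlations of their deviations, across features, were -0.116 to 0.106 in 84 whole-body pairs and -0.134 to 0.134 in 198 tail pairs. With the replicate number as a block, 45 members were called for drp1 against sod2 at homo, 4 at 1dpa, 48 and 22 for drp1 and sod2 with time and 13 for the interaction. In tails the block gave 0, 2, 0 and 0 for opa1;egfp against egfp;egfp, 0, 7, 0 and 1 for opa1;drp1 against opa1;egfp, 0 for the interaction, and 44 and 7 with time. It changed no call count by over 1.5 times. For drp1 against sod2 at homo 37 of 100 members at or above the median level were called and 7 of 99 below it, and the part of depth in this was not tested.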
